A study of Mus musculus with 46 samples.

Results

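The genes described here are 38 members of the fatty acid oxidation pathway of the mouse, the enzymes and carriers of the mitochondrion and the peroxisome together with their regulators. They were taken by name from the 53465 genes of the deposited expression table, and all 38 were found. The list of names was chosen with earlier results of these data known. Expression was measured by RNA sequencing in populations sorted by flow cytometry from kidneys of wild-type (WT) mice. Mice underwent sham surgery, unilateral ureteric obstruction (UUO), in which a ureter is tied and the tubules dilate and scar, or reversal of the obstruction (rUUO). The sorted populations were proximal tubular (PT) cells bound by the lectin LTL, F4/80+ macrophages, CD31+ endothelial cells and PDGFRβ+ stromal cells. The sham, UUO and rUUO groups held 3, 4 and 3 samples of PT cells, 4, 4 and 3 of macrophages and 4, 3 and 4 of endothelial cells. Each surgery gave 4 samples of stromal cells.

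All groups share the wild-type genotype. By the study's methods the mice were C57BL/6 males 8 to 12 weeks old, culled 2 or 7 days after UUO and 14 days after reversal for rUUO. The sample labels call all obstructed samples UUO without a day, so that both days cannot be told apart in them. The series is described as 4 mice in each group, but no sample label names a mouse, and p-values measure the spread between these samples.

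Fatty acid oxidation is the main source of ATP in the proximal tubule, which reabsorbs most of the filtered solute and has little capacity for glycolysis. Fatty acids are taken up, activated to acyl-CoA, carried into the mitochondrion by the carnitine shuttle and shortened there by rounds of dehydrogenation, hydration, dehydrogenation and thiolysis. Peroxisomes shorten very long and branched chains first and pass the products on. The nuclear receptor PPARα, with its coactivator PGC-1α, switches many of these genes on by binding, as a pair with RXR, to a direct repeat of AGGTCA spaced by 1 base, an element that HNF4A also binds.

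The windows around the transcription start are shown because many of these genes are known targets of the receptor named above. RefSeq promoter windows of 300 bases, from 250 bases before to 50 after the start on GRCm38.p6, were found for 32 of the 38 genes, in 35 windows. The hexamer AGGTCA, searched on both strands, was present in 7 of the 35 windows (20.0%) and in 5340 of all 32851 windows (16.3%). The direct repeat AGGTCANAGGTCA, searched on both strands and allowed up to 2 mismatches, was present in 4 of the 35 windows (11.4%) and in 1268 of all windows (3.9%). Every such repeat was counted whether or not it also held the hexamer. With up to 1 mismatch it was present in 0 of the 35 and in 182 of all windows (0.6%). The 4 windows that held the repeat are those of Cat, Echs1, Etfa and Slc25a20, and they are printed on the strand of the gene with the repeat in capitals. Cat encodes catalase, and its window is chr2:103485104-103485403 on the minus strand. Echs1 encodes the short-chain enoyl-CoA hydratase, and its window is chr7:140116372-140116671 on the minus strand. Etfa encodes a subunit of the electron transfer flavoprotein, and its window is chr9:55512194-55512493 on the minus strand. Slc25a20 encodes the carnitine-acylcarnitine carrier, and its window is chr9:108661886-108662185 on the plus strand.
Cat: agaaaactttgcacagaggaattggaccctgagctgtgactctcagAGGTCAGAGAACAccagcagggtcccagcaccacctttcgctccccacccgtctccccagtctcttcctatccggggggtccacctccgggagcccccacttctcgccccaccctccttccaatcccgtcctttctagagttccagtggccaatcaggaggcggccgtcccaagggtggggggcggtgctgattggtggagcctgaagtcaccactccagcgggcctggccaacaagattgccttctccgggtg
Echs1: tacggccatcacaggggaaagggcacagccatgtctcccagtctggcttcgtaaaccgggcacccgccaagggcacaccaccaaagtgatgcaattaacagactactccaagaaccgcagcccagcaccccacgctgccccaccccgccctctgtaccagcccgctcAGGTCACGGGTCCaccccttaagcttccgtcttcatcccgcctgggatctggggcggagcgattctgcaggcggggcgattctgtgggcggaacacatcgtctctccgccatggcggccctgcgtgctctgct
Etfa: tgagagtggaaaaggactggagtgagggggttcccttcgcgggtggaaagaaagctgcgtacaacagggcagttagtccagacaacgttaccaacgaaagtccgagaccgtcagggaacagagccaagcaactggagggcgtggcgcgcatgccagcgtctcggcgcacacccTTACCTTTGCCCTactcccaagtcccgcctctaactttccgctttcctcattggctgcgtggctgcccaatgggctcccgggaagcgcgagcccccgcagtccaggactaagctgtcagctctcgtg
Slc25a20: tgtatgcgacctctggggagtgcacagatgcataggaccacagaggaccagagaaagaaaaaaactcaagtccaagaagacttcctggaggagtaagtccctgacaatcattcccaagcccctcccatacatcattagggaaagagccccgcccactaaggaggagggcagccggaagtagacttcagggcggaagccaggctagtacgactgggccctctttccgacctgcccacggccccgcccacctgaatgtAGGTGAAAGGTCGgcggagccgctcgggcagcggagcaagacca
Counted from the transcription start, the repeat began at -204 in Cat, at -83 in Echs1, at -77 in Etfa, where it lies on the opposite strand, and at 7 in Slc25a20. In PT cells after UUO, Cat was lower than in sham and the other 3 did not pass the test, as described further on. A match of these letters is a description of the window and no evidence that a factor binds there.

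The table gives FPKM, fragments scaled to transcript length and to the fragments of each sample, so that levels may be compared between genes. It holds no counts, and the absolute depth is unknown. Relative depth, read from the smallest steps between low values and set to 1 in the lowest sample, ranged up to 2.77 over the 44 samples, and the sum of FPKM per sample from 586929 to 884982. Transcripts of the mitochondrial genome took 68.9 to 75.6% of the FPKM sum in PT sham, 58.7 to 66.4% in PT UUO, 68.1 to 71.3% in PT rUUO and 20.2 to 45.8% in the other populations. A gene of the nuclear genome therefore reads lower in PT cells for the same share of the remaining transcripts, and each result below was also computed without the mitochondrial genes. Each population was high in its own markers, whose summed level was 2107 to 6905 FPKM for the proximal tubule in PT samples, 5871 to 10581 FPKM for macrophages, 3637 to 4712 FPKM for endothelial and 1572 to 15336 FPKM for stromal markers in their own samples. The macrophage, endothelial and stromal markers summed to at most 50.7, 41.8 and 85.6 FPKM in PT samples. In bulk samples, fewer cells of a type and less RNA per cell cannot be told apart.

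In sham kidneys most of the 38 genes were highest in PT cells, with the widest gaps on the log2 scale at Acsm2, Slc27a2, Pecr and Acaa1b. These are genes of uptake, activation or peroxisomal oxidation, but not all genes of these steps had such gaps. Acsl1 and Acox3 read no higher in PT cells than in macrophages in FPKM. Groups were compared by limma on log2(FPKM + 1) for genes that averaged 1 FPKM or more, and a gene was called at a Benjamini-Hochberg adjusted p below 0.05. Differences on this scale understate those of low genes. Against macrophages 29 of the 38 (76.3%) were called higher in PT cells and 1 lower, where 12.6% of all genes tested were called higher and 52.4% lower. Against endothelial cells 28 (73.7%) were higher and 0 lower, where 8.73% of all genes were higher and 53.6% lower. Against stromal cells 25 (65.8%) were higher and 2 lower, where 7.89% of all genes were higher and 59.7% lower. The median difference of all genes was -0.90, -0.93 and -1.06 on the log2 scale, and that of the 38 genes 1.56, 1.28 and 1.08. Without the mitochondrial genes 37, 33 and 34 were called higher and 0 lower. Of all genes 24.2%, 14.5% and 12.6% were then called higher and 28.5%, 33.8% and 41.9% lower.

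Among the genes of uptake and activation, Acsm2, a medium-chain acyl-CoA synthetase of the mitochondrial matrix at chr7:119554340-119600690 on mm10, had the highest level of all 38. Acsm2 was measured at 905, 1016 and 771 FPKM in the PT sham samples and averaged 29.0 FPKM in macrophages, 29.6 FPKM in endothelial cells and 14.5 FPKM in stromal cells (n = 4 each). The difference between PT and stromal cells was 5.99 ± 0.41 on the log2 scale (SE, limma, Benjamini-Hochberg adjusted p = 1.8e-09). Acsm2 belongs to a family of close paralogs, so the share of reads that the counting gave it is uncertain. Slc27a2, a very long-chain acyl-CoA synthetase and fatty acid transporter, averaged 338 ± 24.3 FPKM in PT cells (SD, n = 3), against 17.4, 11.97 and 9.12 FPKM in macrophages, endothelial and stromal cells. Acsl1, the long-chain acyl-CoA synthetase, differed from both. It averaged 53.3 FPKM in PT cells and 60.0 FPKM in macrophages, a difference of -0.17 on the log2 scale that did not pass the test, while endothelial cells had 11.975 FPKM and stromal cells 15.7 FPKM. Rescaled without the mitochondrial genes, Acsl1 was called higher in PT cells than in macrophages, by 0.99 (limma, Benjamini-Hochberg adjusted p = 0.00111).

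The regulators were of low to middle level. Ppara, which encodes PPARα at chr15:85734983-85802819 on the plus strand, was measured at 8.27, 7.71 and 9.35 FPKM in PT sham and averaged 0.44 FPKM in macrophages, 0.28 FPKM in endothelial and 0.70 FPKM in stromal cells. PT samples were the only sham samples above 1.49 FPKM of Ppara. Ppargc1a, which encodes PGC-1α at chr5:51454250-51567726 on the minus strand, was measured at 38.7, 71.7 and 42.4 FPKM in PT sham, against means of 5.28 FPKM in macrophages, 12.2 FPKM in endothelial cells and 25.4 FPKM in stromal cells. The difference of Ppargc1a from stromal cells, 1.01 on the log2 scale, did not pass the test (limma, Benjamini-Hochberg adjusted p = 0.103).

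The genes of the carnitine shuttle differed in their pattern. Cpt1a, the outer-membrane transferase that limits entry of fatty acids into the mitochondrion, lies at chr19:3323301-3385732. Cpt1a was measured at 37.9, 29.8 and 31.8 FPKM in PT sham and averaged 34.9 FPKM in macrophages, 43.1 FPKM in endothelial cells and 46.7 FPKM in stromal cells. It was called lower in PT than in stromal cells by limma with Benjamini-Hochberg adjustment, at -0.48 on the log2 scale (adjusted p = 0.0411). Rescaled without the mitochondrial genes this difference of Cpt1a turned to 0.23 on the same scale and was not called. Slc25a20, the carrier of the inner membrane, averaged 11.4 FPKM in PT cells and between 10.4 and 16.6 FPKM elsewhere, and passed the test against no population on the deposited scale. Cpt2, the inner-membrane transferase, averaged 18.3 FPKM and was called higher in PT cells than in each other population, by 1.05 to 1.11 on the log2 scale (limma, Benjamini-Hochberg adjusted p of 0.00754 to 0.0108). Crat and Crot, the acetyl- and octanoyltransferases, averaged 26.2 and 20.0 FPKM in PT cells.

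Inside the mitochondrion the picture differed by enzyme. Among the acyl-CoA dehydrogenases, which take the first step at successive chain lengths, Acadvl averaged 81.5 FPKM, Acadm 80.5 FPKM, Acadl 16.4 FPKM and Acads 4.15 FPKM in PT sham, and Acad11 and Acad10, which act on less common substrates, 21.3 and 7.52 FPKM. Acadl had 17.9 FPKM in endothelial and 16.3 FPKM in stromal cells. On the deposited scale it passed the test only against macrophages, which had 9.72 FPKM, as did Acads at 2.07 FPKM there. Rescaled without the mitochondrial genes, Acadl and Acads were also called higher than in endothelial cells, by 0.69 and 1.31 on the log2 scale (limma, Benjamini-Hochberg adjusted p = 0.0131 and 0.000862). Acad10 has a close paralog, Acad12, and its count is uncertain for that reason. The subunits of the electron transfer flavoprotein, Etfa and Etfb, averaged 127 and 257 FPKM and their dehydrogenase Etfdh 37.2 FPKM in PT cells, and all 3 were called higher in PT cells than in each other population. Of the hydratases, dehydrogenases and thiolases, Acaa2 (105 FPKM), Acat1 (81.2 FPKM) and Hadh (72.8 FPKM) stood higher in PT cells than in all others. Hadhb, the β subunit of the trifunctional protein, averaged 54.9 FPKM and the hydratase Echs1 20.5 FPKM. Hadha, the α subunit, went the other way, with 20.3 FPKM in PT cells against 31.5 FPKM in macrophages and 41.8 FPKM in stromal cells. Hadha was lower in PT cells than in macrophages by -0.60 and than in stromal cells by -0.97 on the log2 scale (limma, Benjamini-Hochberg adjusted p = 0.0319 and 0.00146). Rescaled without the mitochondrial genes, the difference of Hadha from macrophages became 0.54 and that from stromal cells -0.27, and neither was called lower. The isomerases Eci1 and Eci2 and the reductase Decr1, which prepare unsaturated chains, averaged 13.2, 22.3 and 22.8 FPKM in PT cells, and neither isomerase passed the test against any population on the deposited scale.

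Several peroxisomal genes were far lower outside PT cells. Pecr, the peroxisomal trans-2-enoyl-CoA reductase at chr1:72259167-72284314 on the minus strand, was measured at 152, 165 and 101 FPKM in PT sham and averaged 8.92, 4.36 and 3.98 FPKM in macrophages, endothelial and stromal cells. Ehhadh, the bifunctional enzyme, averaged 37.3 FPKM in PT cells and between 2.60 and 3.76 FPKM elsewhere. Acaa1b, a peroxisomal thiolase whose reads may be shared with its paralog Acaa1a, averaged 33.9 FPKM against 0.86 to 1.85 FPKM elsewhere, and Amacr, the racemase for branched chains, 17.3 FPKM against 1.26 to 2.75 FPKM. Scp2, a thiolase and sterol carrier, averaged 144 FPKM, the importer Abcd3 36.5 FPKM, the multifunctional enzyme Hsd17b4 37.9 FPKM and the branched-chain oxidase Acox3 29.4 FPKM in PT cells. On the deposited scale Acox3 and Hsd17b4 did not differ by the test from macrophages, which had 32.8 and 31.6 FPKM. Rescaled without the mitochondrial genes, Acox3 was called higher in PT cells than in macrophages, by 1.03 on the log2 scale (limma, Benjamini-Hochberg adjusted p = 0.00283). Catalase (Cat), which removes the peroxide made by the oxidases, averaged 243 FPKM in PT cells and 46.0 to 91.0 FPKM elsewhere, and Pex11a, which elongates peroxisomes before division, 7.24 FPKM against 1.06 to 2.97 FPKM. The share of all genes called higher was given above against each population and was not computed for all 3 together. In all, 22 of the 38 genes were called higher in PT cells than in all 3 other populations, 6 than in 2 of them, 4 than in 1 and 6 than in none. The last 6 were Cpt1a, Slc25a20, Hadha, Echs1, Eci1 and Eci2. Without the mitochondrial genes all of these but Hadha were called higher in PT cells than in macrophages, by 1.08 (Cpt1a), 1.29 (Slc25a20), 1.39 (Echs1), 1.69 (Eci1) and 1.63 (Eci2) on the log2 scale.

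**Figure D1:**
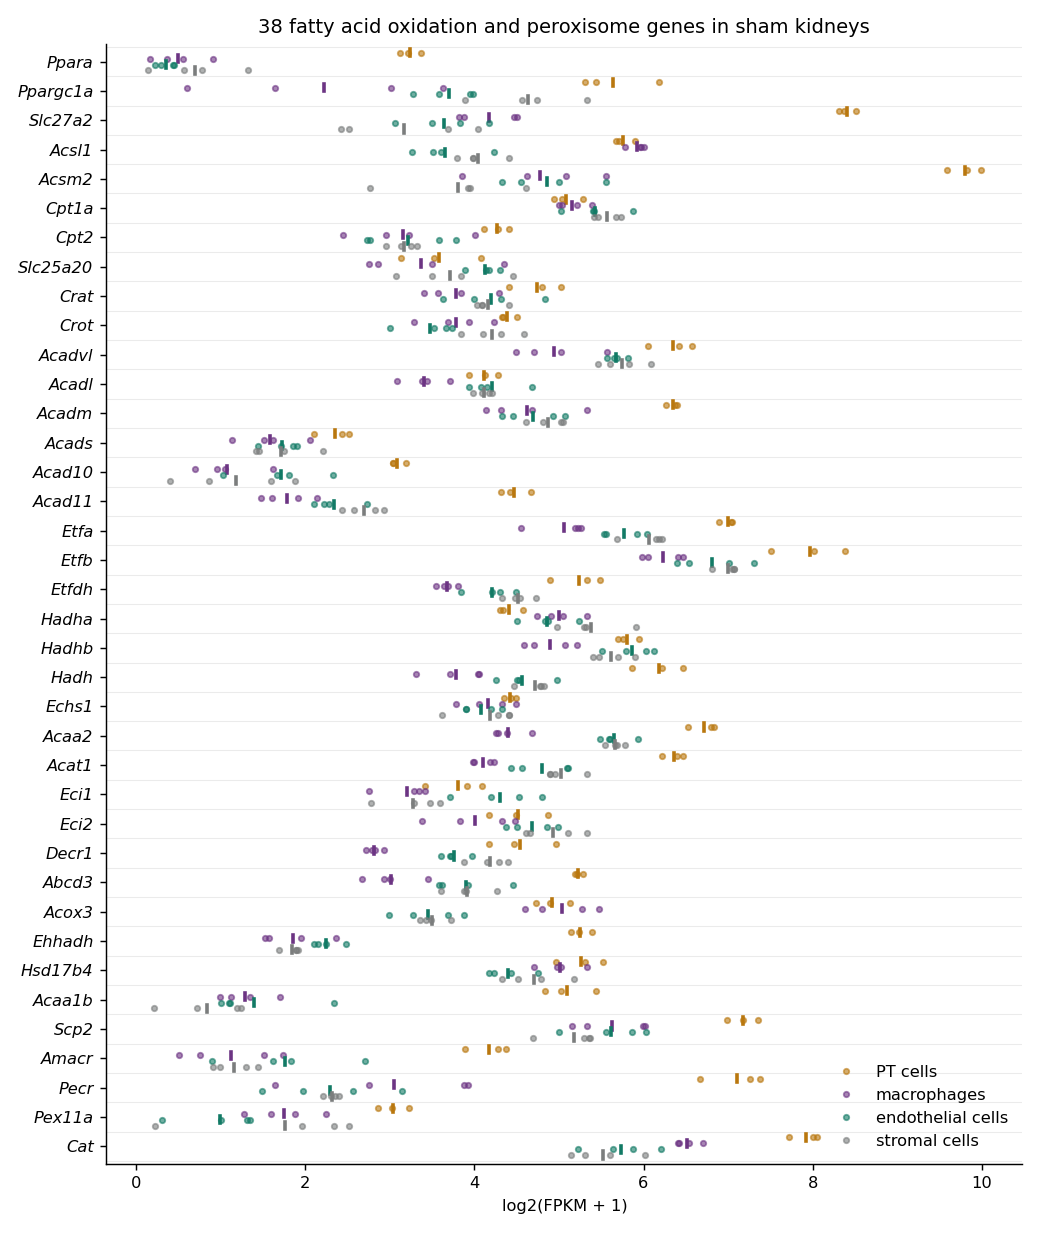
Level of each of the 38 genes in sham samples as FPKM on a log axis, by sorted population, with points for samples and genes ordered by role. Acsm2 and Slc27a2 stand far above the other populations in PT cells (means of 897 and 338 FPKM), whereas Cpt1a and Hadha are not called higher in PT cells than elsewhere on this scale, and Cpt1a is called higher than in macrophages (1.08 on the log2 scale) without the mitochondrial genes.

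A few PT genes in the other populations read at the level that markers of the proximal tubule also had there. Expressed as a percent of their PT mean, 12 proximal tubule markers had a median of 4.69% in sham macrophages (3.31 to 34.5%), 3.51% in endothelial cells (2.64 to 5.79%) and 1.90% in stromal cells (1.32 to 3.58%). Acsm2 stood at 3.23%, 3.30% and 1.61%, Slc27a2 at 5.16%, 3.54% and 2.70%, and Pecr at 6.40%, 3.13% and 2.85%, all within or below the range of the markers. The median of the 38 genes was 32.8%, 41.0% and 45.7%, and 18, 33 and 34 of them were above every one of the 12 markers. Where the values of Acsm2, Slc27a2 and Pecr outside PT cells come from was not tested.

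Summed, the 38 genes took 1.32 ± 0.00925% of the FPKM outside the mitochondrial genome in the 3 PT sham samples (SD), 0.673 ± 0.111% in the 4 of PT UUO and 0.850 ± 0.00999% in the 3 of PT rUUO. Every PT sham sample was above every PT rUUO sample. Acsm2 alone made up 27.8% of this sum in sham, 12.8% in UUO and 25.0% in rUUO, and without it the shares were 0.954%, 0.586% and 0.638%. The share in other populations was lower throughout, at 0.139%, 0.128% and 0.116% in macrophages, 0.204%, 0.149% and 0.181% in endothelial cells and 0.225%, 0.166% and 0.179% in stromal cells for sham, UUO and rUUO. No test was made of a sum over genes chosen for a pathway.

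**Figure D2:**
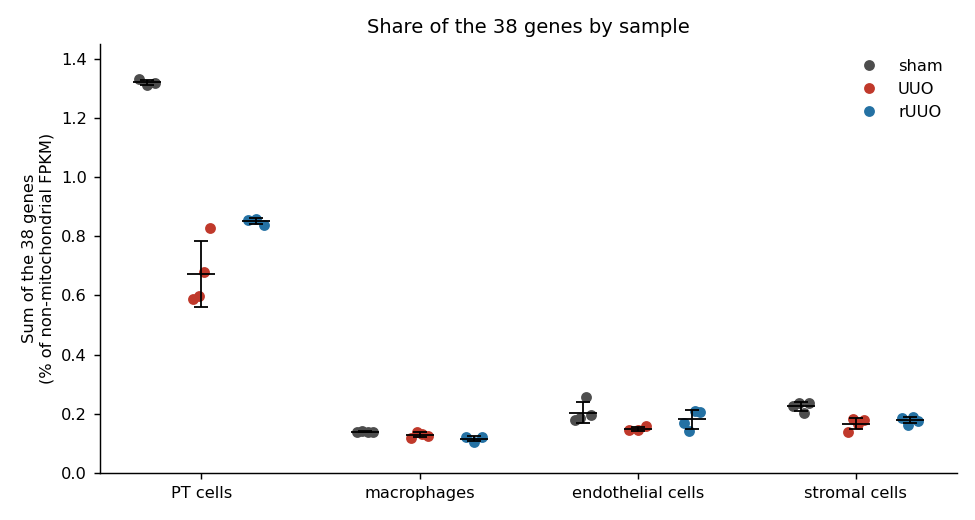
Percent of the FPKM sum outside the mitochondrial genome taken by the 38 genes, with 1 point per sample, by population and surgery. PT sham samples sit near 1.32%, PT UUO samples near 0.673% and PT rUUO samples near 0.850%, while no mean of another population exceeds 0.225%.

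The genes called lower in PT cells after UUO included 2 of 3 genes of uptake and activation and 3 of 6 hydratases, dehydrogenases and thiolases. They also included 4 of 8 genes grouped under peroxisomal oxidation, among them the reductase Pecr, beside Ppara, Acadm and Cat. Against sham, 12 of the 38 genes (31.6%) were called lower and 2 (5.26%) higher, where 4.91% of the 11416 genes tested were called lower and 27.9% higher. The median change of all genes was 0.505 on the log2 scale and that of the 38 genes -0.285, and 35 of the 38 lay below the median of all genes. Without the mitochondrial genes 14 were lower and 1 higher, where 7.55% of all genes were lower, 17.1% were higher and their median was 0.27. After quantile normalization 15 were lower and 0 higher, where 10.5% of all genes were lower, 11.2% were higher and their median was -0.02. The genes called lower under both rescalings but not on the deposited scale were Etfb and Acaa1b. In all 14 called genes the UUO samples did not overlap the sham samples. The same test had picked these genes, so this adds no support, and the share over all genes was not computed.

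Ppara was measured at 1.18, 2.30, 4.60 and 2.71 FPKM in PT UUO, each below the lowest sham sample at 7.71 FPKM. Its change was -1.43 ± 0.36 on the log2 scale (SE, limma, Benjamini-Hochberg adjusted p = 0.0081). Ppargc1a, at 54.0, 37.9, 82.0 and 66.4 FPKM in UUO, overlapped sham, and its difference of 0.23 ± 0.28 did not pass the test (adjusted p = 0.54). The difference of Ppargc1a turned to -0.06 without the mitochondrial genes.

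Among the genes of uptake and activation, Acsm2 was measured at 255, 199, 234 and 346 FPKM in UUO against 771 FPKM in the lowest sham sample. It fell by 1.81 ± 0.19 on the log2 scale (SE, limma, Benjamini-Hochberg adjusted p = 7e-06). Acsl1 was measured at 23.7, 16.3, 30.9 and 29.4 FPKM in UUO and at 51.2, 58.8 and 49.9 FPKM in sham, a change of -1.09 ± 0.28 (adjusted p = 0.0087). Slc27a2 had 187, 274, 371 and 408 FPKM in UUO, on both sides of its sham values of 318 to 365 FPKM, and did not pass the test at -0.18 ± 0.23 (adjusted p = 0.56).

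Of the 5 genes of the carnitine shuttle, 1 was called higher and 0 lower, where 27.9% of all genes were called higher and 4.91% lower. Cpt1a was measured at 28.3, 24.3, 31.3 and 34.4 FPKM in UUO, within reach of its sham values, with a difference of -0.17 ± 0.20 on the log2 scale (limma, Benjamini-Hochberg adjusted p = 0.54). Crot, the octanoyltransferase of the peroxisome, had 27.8, 22.5, 42.8 and 46.8 FPKM in UUO against 19.1 to 21.6 FPKM in sham and was called higher at 0.72 ± 0.26 (adjusted p = 0.0471). The call of Crot was lost, with an adjusted p of up to 0.274, without the filter, without the mitochondrial genes, after quantile normalization and with the replicate number as a block. It was also lost without PT sham replicate 1, 2 or 4, PT UUO replicate 3 or 4, or PT rUUO replicate 2 or 3. Cpt2, Slc25a20 and Crat did not pass the test, with differences of -0.33, 0.36 and -0.47.

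Of the 6 acyl-CoA dehydrogenases 1 was called higher and 1 lower, beside 27.9% and 4.91% of all genes. Acadl, the long-chain enzyme at chr1:66830839-66863277, was measured at 28.9, 26.8, 34.2 and 28.6 FPKM in UUO and at 16.4, 18.5 and 14.3 FPKM in sham. It rose by 0.82 ± 0.20 on the log2 scale (SE, limma, Benjamini-Hochberg adjusted p = 0.0075), and after quantile normalization by 0.43 with an adjusted p of 0.0834. Acadm, the medium-chain enzyme, had 46.1, 45.5, 57.4 and 50.9 FPKM in UUO against 76.1 to 83.3 FPKM in sham and was called lower at -0.68 ± 0.20 (adjusted p = 0.0167), though not without PT sham replicate 1 (adjusted p = 0.0535). Acadvl, Acads, Acad10 and Acad11 had differences of 0.06, -0.25, -0.33 and -0.09 and did not pass. After quantile normalization Acad10 was called lower at -0.88 (adjusted p = 0.0164), but not without the mitochondrial genes (adjusted p = 0.116). Etfa, Etfb and Etfdh had differences of -0.01, -0.53 and -0.20 and did not pass on the deposited scale. Etfb was called lower under both rescalings, at -0.83 without the mitochondrial genes and -0.87 after quantile normalization (limma, Benjamini-Hochberg adjusted p = 0.00321 and 0.00162).

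Of the hydratases, dehydrogenases and thiolases, 3 of 6 were called lower, where 4.91% of all genes were. Acaa2, the last enzyme of the mitochondrial cycle, was measured at 52.0, 42.5, 38.8 and 33.2 FPKM in UUO and at 111, 113 and 90.8 FPKM in sham, a change of -1.32 ± 0.22 on the log2 scale (SE, limma, Benjamini-Hochberg adjusted p = 5e-04). Hadh, the short-chain hydroxyacyl-CoA dehydrogenase, had 29.9, 22.4, 44.2 and 38.4 FPKM in UUO against 87.8, 73.3 and 57.2 FPKM in sham, a change of -1.11 ± 0.24 (adjusted p = 0.0037). Acat1, the acetoacetyl-CoA thiolase, was lower by -0.81 ± 0.23 (adjusted p = 0.0168), a call that was lost without PT sham replicate 1 (adjusted p = 0.0604). The subunits of the trifunctional protein, Hadha and Hadhb, had differences of 0.33 and 0.03, and Echs1 of 0.13, and none of the 3 passed. Eci1, Eci2 and Decr1 had differences of 0.35, 0.59 and -0.21 and did not pass.

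Of the 8 genes grouped under peroxisomal oxidation, which include the reductase Pecr, 4 were called lower, where 4.91% of all genes were. All 8 differences were negative, while Crot, which is counted with the carnitine shuttle, was higher. Pecr was measured at 24.3, 37.2, 43.9 and 47.4 FPKM in UUO, against 101 FPKM in the lowest sham sample, and had the largest change of the 38 at -1.85 ± 0.25 on the log2 scale (SE, limma, Benjamini-Hochberg adjusted p = 9.5e-05). Amacr had 4.51, 5.24, 9.56 and 9.28 FPKM in UUO and 18.3, 19.7 and 13.8 FPKM in sham, a change of -1.21 ± 0.29 (adjusted p = 0.0064). Scp2 fell by 0.80 and Acox3 by 0.81 (adjusted p = 0.0028 and 0.0234). Acox3 was not called, with an adjusted p of up to 0.0926, without the filter or without PT sham replicate 1 or 2 or PT UUO replicate 1. Abcd3, Ehhadh, Hsd17b4 and Acaa1b had differences of -0.32, -0.39, -0.05 and -0.51 and did not pass on the deposited scale. Acaa1b was called lower under both rescalings, at -0.80 without the mitochondrial genes and -0.83 after quantile normalization (limma, Benjamini-Hochberg adjusted p = 0.0163 and 0.0138). Cat fell by 0.76 (adjusted p = 0.0112), from 209 to 265 FPKM in sham to 112 to 185 FPKM in UUO, and Pex11a, at 0.41, did not pass.

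**Figure D3:**
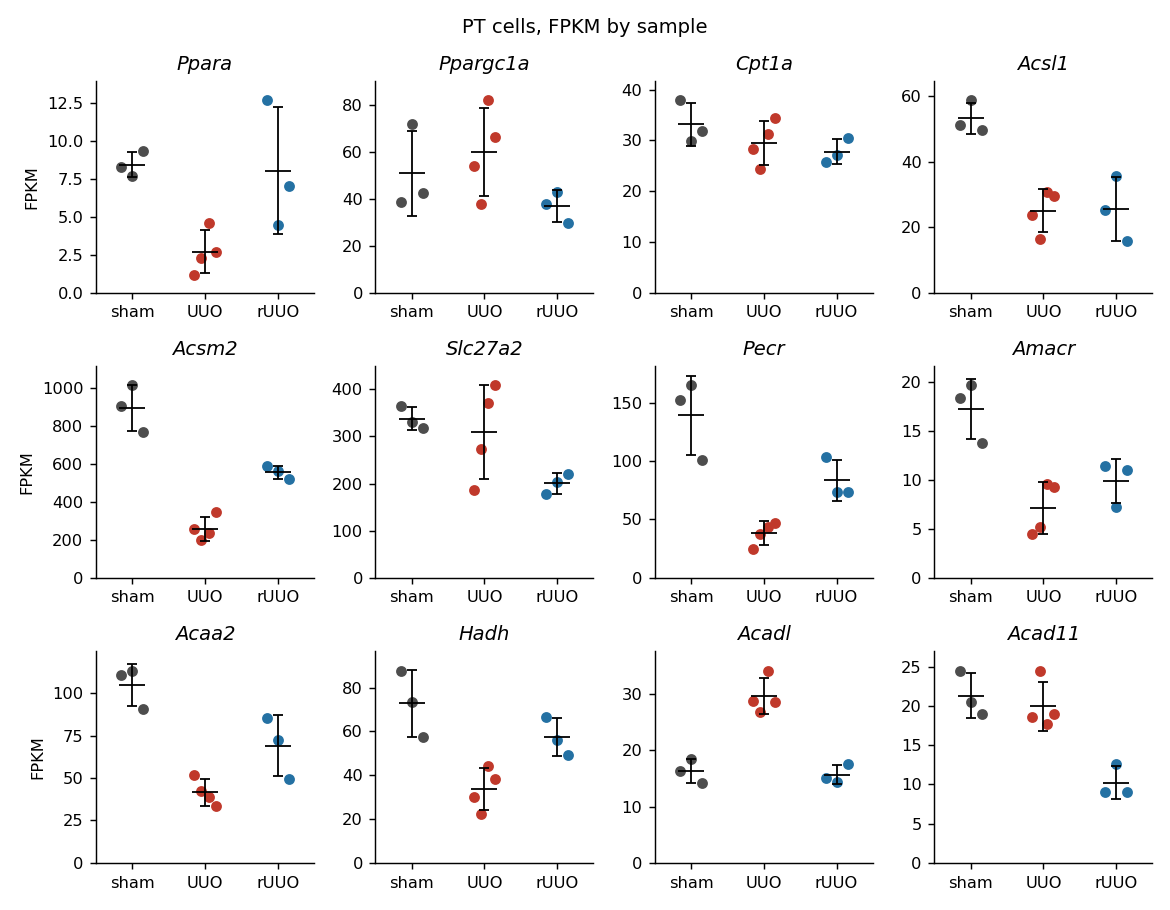
FPKM of 12 of the genes in each PT sample by surgery, with points for samples and bars for the mean ± SD (n = 3 sham, 4 UUO, 3 rUUO). Pecr, Acsm2, Acaa2, Amacr, Hadh, Acsl1 and Ppara lie lower in every UUO sample than in every sham sample, Acadl lies higher, and Cpt1a, Ppargc1a, Slc27a2 and Acad11 overlap.

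Markers of the sorted cells moved in the same comparison, UUO against sham in PT cells. Of all genes 27.9% were called higher there and 4.91% lower, with a median change of 0.505 on the log2 scale. All 12 proximal tubule markers were called lower in PT UUO than in PT sham, with a median of -2.06 (-3.06 to -0.60) on the log2 scale, and their summed level was 5694 to 6905 FPKM in sham, 2107 to 3093 FPKM in UUO and 3328 to 3731 FPKM in rUUO. Of the thick ascending limb markers 2 of 4 were higher in UUO, with summed levels of 20.8 to 24.4 FPKM in sham and 144 to 186 FPKM in UUO. Of the distal tubule and collecting duct markers 3 of 7 tested were higher, with 26.1 to 37.6 FPKM in sham and 282 to 401 FPKM in UUO. Of the stromal markers 3 of 8 tested were higher, with 27.8 to 35.5 FPKM and 45.5 to 85.6 FPKM, and of the macrophage and endothelial markers 0 of 6 and 0 of 9. No marker list was at 0. The part of these shifts in the falls of the oxidation genes was not tested.

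From UUO to rUUO, Acsm2 and Pecr rose in PT cells, while Acadl and Acad11 fell. Of the 38 genes 2 were called higher and 2 lower in rUUO than in UUO, where 0.674% of all genes were called higher and 3.15% lower. The median change of all genes was -0.27 on the log2 scale and that of the 38 genes -0.04. Acsm2 was measured at 590, 562 and 521 FPKM in rUUO, above every UUO sample and below every sham sample, and its rise from UUO was 1.13 ± 0.19 (SE, limma, Benjamini-Hochberg adjusted p = 0.0064). Pecr had 104, 73.6 and 73.7 FPKM in rUUO, a rise of 1.14 ± 0.25 (adjusted p = 0.0275). Acadl had 15.1, 14.3 and 17.6 FPKM in rUUO, a change of -0.88 ± 0.20 (adjusted p = 0.0309), and its difference from sham was -0.06 ± 0.22. Acad11, a dehydrogenase of longer chains at chr9:104063377-104127725, had 8.97, 12.7 and 9.06 FPKM in rUUO against 18.6, 24.5, 17.7 and 18.9 FPKM in UUO, a change of -0.90 ± 0.22 (adjusted p = 0.0377). The UUO and rUUO samples did not overlap for any of the 4, which this same test had picked. The share over all genes was not computed.

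These calls rested on few samples. Leaving out single samples left between 1 and 4 calls, with 1 call left without PT UUO replicate 1, PT rUUO replicate 2 or PT rUUO replicate 3, and 2 left without PT UUO replicate 2, 3 or 4 or PT rUUO replicate 4. Acsm2 was called in each of these fits. Pecr lost its call without PT UUO replicate 1 or 2 or any 1 of the rUUO samples (adjusted p up to 0.103), Acadl without any 1 of the UUO samples or PT rUUO replicate 2 or 3 (up to 0.104), and Acad11 without PT sham replicate 1 or any 1 of the UUO or rUUO samples (up to 0.161), all by limma with Benjamini-Hochberg adjustment. Pecr, Acadl and Acad11 also lost their calls with the replicate number as a block, and Pecr and Acad11 without the filter. Ppara was measured at 12.7, 4.45 and 7.02 FPKM in rUUO, overlapping UUO through a single sample, and its difference of 1.27 ± 0.36 missed the threshold (limma, Benjamini-Hochberg adjusted p = 0.0658). Without the mitochondrial genes and after quantile normalization 5 genes were called higher and 0 lower, among them Ppara, Acaa2 and Hadh beside Acsm2 and Pecr, and Acadl and Acad11 were no longer called. Of all genes 1.3% and 1.73% were called higher under these rescalings and 1.38% and 1.18% lower. Ppargc1a (37.7, 43.0 and 29.7 FPKM in rUUO) and Cpt1a (25.8, 27.1 and 30.5 FPKM) had differences of -0.65 and -0.08 from UUO and did not pass. Of the proximal tubule markers 7 of 12 were called higher in rUUO than in UUO, with a median of 1.05, and their part in these rises was not tested.

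Set against sham, rUUO left 2 of the 38 genes lower and 0 higher, where 0.946% of all genes were called lower and 6.52% higher. Acsl1 was measured at 25.2, 35.6 and 15.9 FPKM in rUUO, all below the lowest sham sample at 49.9 FPKM, with a change of -1.10 ± 0.30 on the log2 scale (SE, limma, Benjamini-Hochberg adjusted p = 0.0378). Acad11 fell by 1.00 ± 0.24 against sham (adjusted p = 0.0187). Its difference between UUO and sham was -0.09 ± 0.22 and did not pass (adjusted p = 0.77). The median change of all genes was 0.21 and that of the 38 genes -0.38, and 36 of the 38 lay below the median of all genes. Slc27a2, at 177, 203 and 220 FPKM in rUUO, lay below every sham sample and missed the threshold at -0.76 ± 0.25 (adjusted p = 0.081). Acsm2 missed it at -0.68 ± 0.20 (adjusted p = 0.0555), as did Pecr at -0.72 ± 0.27 (adjusted p = 0.135), here as for Slc27a2 on the deposited scale. Ppara, Ppargc1a and Cpt1a had differences of -0.16, -0.42 and -0.24 and did not pass.

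Here too the count of calls moved with the scaling and with single samples. Without the mitochondrial genes 11 of the 38 genes were lower in PT rUUO than in PT sham, and after quantile normalization 7, where 1.97% and 2.08% of all genes were lower. Acsm2 and Slc27a2 were called lower without the mitochondrial genes (limma, Benjamini-Hochberg adjusted p = 0.0182 and 0.0441) but not after quantile normalization. Pecr, Cat, Etfa and Scp2 were called lower under both rescalings but not on the deposited scale. Leaving out PT sham replicate 1 left 0 calls, and leaving out PT sham replicate 2, PT sham replicate 4, PT rUUO replicate 2 or PT rUUO replicate 4 left 1. Acsl1 lost its call without any 1 of the sham samples, PT UUO replicate 1 or PT rUUO replicate 2 or 4, and Acad11 without PT sham replicate 1 or PT rUUO replicate 2 or 4, at adjusted p of up to 0.142 and 0.0844 by limma with Benjamini-Hochberg adjustment. Acsl1 was also not called without the filter, nor Acad11 with the replicate number as a block. Of the proximal tubule markers 8 of 12 were called lower in rUUO than in sham, with a median of -0.91 on the log2 scale.

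**Figure D4:**
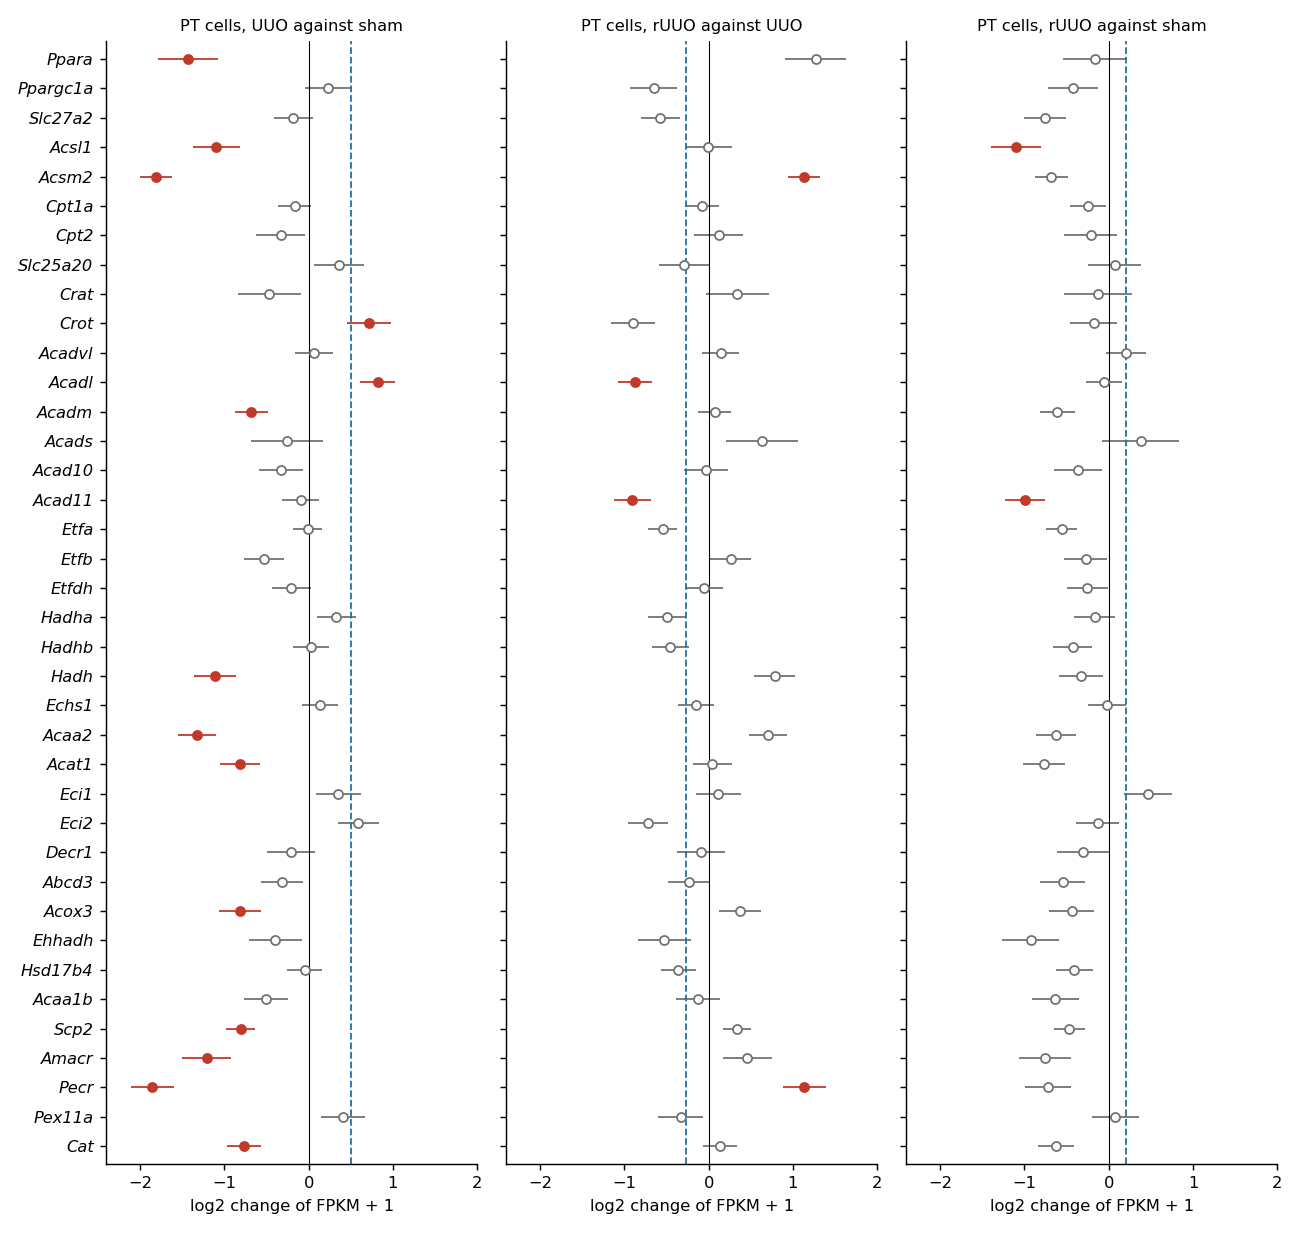
Log2 change ± SE of each of the 38 genes in PT cells for UUO against sham, rUUO against UUO and rUUO against sham, with called genes filled in red and the median of all genes tested as a dashed line. After UUO 12 genes are called lower and 2 higher, and 35 of the 38 lie below the median of all genes of 0.505.

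Among 93 other genes of the pathway, 85 could be tested in PT cells, and 5 (5.88%) were called higher and 12 (14.1%) lower after UUO, where 27.9% of all genes were called higher and 4.91% lower. The largest rises were those of Pdk4, the kinase that shuts pyruvate dehydrogenase, from 0.82 to 3.24 FPKM in sham to 7.82 to 23.95 FPKM in UUO, and of the acyl-CoA synthetases Acsl5 and Acsl4. Acsl5 went from 1.52 to 4.93 FPKM in sham to 15.0 to 23.2 FPKM in UUO and Acsl4 from 1.63 to 2.69 FPKM to 6.90 to 9.79 FPKM. On the log2 scale Pdk4 changed by 2.49, Acsl5 by 2.30 and Acsl4 by 1.59 (limma, Benjamini-Hochberg adjusted p = 2.1e-04, 8.3e-05 and 6.8e-04), while Acsl1, the long-chain form among the 38, fell. The largest falls were those of Acsm1 (-1.48) and Acsm5 (-1.47), paralogs of Acsm2, and of Oxct1 (-1.39), which returns ketone bodies to oxidation. Oxct1 was measured at 377 to 586 FPKM in sham and at 173 to 215 FPKM in UUO. Of 32 other peroxisomal enzymes and carriers tested 6 (18.8%) were lower and 0 higher, and of 15 peroxins, the proteins that build the organelle, 0 were called.

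In rUUO against sham 2 of the 85 were higher and 1 lower, where 6.52% of all genes were called higher and 0.946% lower. The higher genes were Acsl5 at 1.38 and Pdk4 at 1.42, and the lower was Hnf4a at -0.84, a nuclear receptor of the proximal tubule. Hnf4a had also been called lower after UUO.

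In macrophages 36 of the 38 genes could be tested, since Ppara and Acaa1b were too low, and the calls fell on Acsl1 and Slc27a2. After UUO 2 were lower and 0 higher, where 2.13% of all genes were called lower and 2.86% higher. The median difference after UUO was -0.13 on the log2 scale for the 36 genes and -0.03 for all genes. Acsl1 was measured at 53.9, 61.5, 63.5 and 61.3 FPKM in sham, at 21.2, 31.95, 22.03 and 29.1 FPKM in UUO and at 47.8, 45.9 and 46.8 FPKM in rUUO. The 3 groups did not overlap, and the fall after UUO was 1.19 ± 0.18 on the log2 scale (SE, limma, Benjamini-Hochberg adjusted p = 0.0016), called in every alternative run. The difference of Acsl1 between rUUO and UUO, 0.84 ± 0.19, did not pass (adjusted p = 0.23). Slc27a2 was measured at 21.77, 13.65, 13.08 and 21.22 FPKM in sham, at 6.30, 5.93, 10.30 and 7.70 FPKM in UUO and at 2.62, 4.17 and 2.59 FPKM in rUUO, with no overlap between the groups. Its changes against sham were -1.10 ± 0.28 in UUO (adjusted p = 0.0362) and -2.14 ± 0.30 in rUUO (adjusted p = 8.3e-04), the only call in rUUO against sham, where 1.55% of all genes were lower. The first of these was lost, with an adjusted p of up to 0.117, without the filter, with the replicate block, and without macrophage sham replicate 1, 2 or 4 or macrophage UUO replicate 1, 2 or 4, and the second was not lost in any alternative. Between rUUO and UUO limma called 0 of the 36 genes and 0% of all genes, with 3 of the 36 and 945 of all 13332 genes at an unadjusted p under 0.05, and every alternative also gave 0 of the 36.

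Proximal tubule markers in the macrophage samples fell with Slc27a2. Of 11 tested, 7 were lower in UUO and 8 in rUUO than in sham, with medians of -1.85 and -1.97 on the log2 scale and summed levels of 372 to 497 FPKM in sham, 149 to 221 FPKM in UUO and 167 to 185 FPKM in rUUO. Their part in the fall of Slc27a2 was not tested. Acsl1 in sham macrophages stood at 113% of its PT level on the deposited scale, above all 12 markers. Cpt1a in macrophages had means of 34.9 FPKM in sham and differences of -0.26 in UUO and -0.45 in rUUO that did not pass, and Ppargc1a differences of -0.94 and -0.67 that did not pass.

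In endothelial cells 37 genes could be tested and 0 were called in any of the 3 comparisons by limma, where 1.98% of all genes were called in UUO against sham, 0.0597% in rUUO against UUO and 1.77% in rUUO against sham. At an unadjusted p under 0.05 there were 6, 4 and 2 of the 37, beside 1788, 1369 and 1895 of all 13393 genes. Every alternative also gave 0 calls among the genes of the list. Median differences of the 37 genes were -0.34, 0.17 and -0.13 on the log2 scale, beside 0.03, 0.16 and 0.19 for all genes. The gene nearest to the threshold in UUO against sham was named for its value after the data were seen. It was Acsm2, whose samples did not overlap, with a difference of -1.62 ± 0.43 on the log2 scale (limma, Benjamini-Hochberg adjusted p = 0.0674). Cpt1a was measured at 31.6 to 57.5 FPKM in sham, 16.04 to 34.6 FPKM in UUO and 34.1 to 43.97 FPKM in rUUO, and Ppargc1a at 8.63 to 14.8 FPKM, 3.23 to 23.2 FPKM and 2.40 to 12.4 FPKM. Their groups overlapped.

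In stromal cells Ppargc1a had the largest change, a fall after both UUO and rUUO. Of 36 genes tested 7 (19.4%) were lower after UUO and 0 higher, where 13% of all genes were lower and 13.4% higher. The median difference was -0.25 on the log2 scale for the 36 genes and -0.07 for all genes. Ppargc1a was measured at 22.7, 39.4, 13.9 and 25.8 FPKM in sham, at 1.72, 2.05, 11.8 and 7.88 FPKM in UUO and at 5.90, 2.47, 1.46 and 12.9 FPKM in rUUO. All UUO and rUUO samples lay below all sham samples, with changes against sham of -2.16 ± 0.57 and -2.21 ± 0.57 on the log2 scale (SE, limma, Benjamini-Hochberg adjusted p = 0.0097 and 0.0124). Acsm2, at 23.4, 5.78, 14.2 and 14.5 FPKM in sham and 3.58, 3.72, 5.54 and 2.54 FPKM in UUO, fell by 1.57 ± 0.52 (adjusted p = 0.0344). Slc27a2, at 15.5, 4.73, 4.37 and 11.9 FPKM in sham and 1.47, 3.47, 3.11 and 1.63 FPKM in UUO, fell by 1.44 ± 0.47 (adjusted p = 0.0334). Both stood in sham at the percent of their PT level that proximal tubule markers also had.

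The other called genes of stromal cells after UUO were Eci1 (-1.36), whose groups overlapped, Acsl1 (-1.03), Etfb (-0.89) and Acaa2 (-0.56). Leaving out single samples left between 3 and 8 calls, with 3 left without stromal sham replicate 1 or 4 and 4 left without stromal sham replicate 2 or 3 or stromal UUO replicate 1. Acsm2 was not called without stromal sham replicate 1, 3 or 4 or UUO replicate 1, 2 or 4, and Slc27a2 not without stromal sham replicate 1 or 4 or UUO replicate 1 or 4, nor after quantile normalization. Eci1 was not called without stromal sham replicate 1, 2 or 4 or UUO replicate 1 or 3, and Acsl1 not without stromal sham replicate 1, 2 or 3 or UUO replicate 2 or 3. Acaa2 was not called without any 1 of the stromal sham samples, UUO replicate 1 or 3 or rUUO replicate 2, nor with the replicate number as a block. Without the filter Acsm2, Slc27a2, Eci1 and Acsl1 were not called. The adjusted p of these 5 genes reached at most 0.116 over the alternatives, and Ppargc1a and Etfb were called in every one. In rUUO against sham 3 genes were lower, where 5.57% of all genes were: Ppargc1a, Acsl1 (-1.24 ± 0.33) and Etfb (-0.73 ± 0.19), with adjusted p of 0.0124, 0.0158 and 0.0159 by limma with Benjamini-Hochberg adjustment. Etfb was measured at 133, 131, 111 and 134 FPKM in sham and at 82.1, 75.1, 94.8 and 57.4 FPKM in rUUO, and Acsl1 at 14.87, 20.22, 14.79 and 12.83 FPKM in sham and 4.00, 6.18, 3.85 and 12.71 FPKM in rUUO. Without stromal rUUO replicate 6 Etfb was no longer called there (adjusted p = 0.0599), nor was Acsl1 without stromal sham replicate 2 or stromal rUUO replicate 1 or 4 (up to 0.0569), nor Ppargc1a without the filter (adjusted p = 0.0548). In rUUO against UUO 1 gene was higher, where 2.95% of all genes were, Decr1 at 13.9, 17.4, 10.8 and 9.08 FPKM in UUO and 29.8, 21.3, 20.6 and 24.4 FPKM in rUUO (0.88 ± 0.23, adjusted p = 0.0464). Decr1 was not called, with an adjusted p of up to 0.184, without stromal sham replicate 1, 2 or 4, stromal UUO replicate 1, 3 or 4, or any 1 of the stromal rUUO replicates. Nor was it called under either rescaling, without the filter or with the replicate number as a block. Cpt1a in stromal cells had differences of -0.18, 0.30 and 0.13 in the 3 comparisons and did not pass.

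Tubule markers fell in the stromal samples as well. Of the proximal tubule markers 8 of 9 tested were lower after UUO, with summed levels of 104 to 159 FPKM in sham, 21.3 to 31.4 FPKM in UUO and 26.4 to 85.8 FPKM in rUUO. All 4 thick ascending limb markers and all 8 distal markers were lower, the former from 260 to 335 FPKM to 28.7 to 54.2 FPKM and the latter from 227 to 450 FPKM to 4.12 to 27.5 FPKM. The part of these segments in the falls of Ppargc1a, Acsm2, Slc27a2 and Etfb in stromal samples was not tested.

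**Figure D5:**
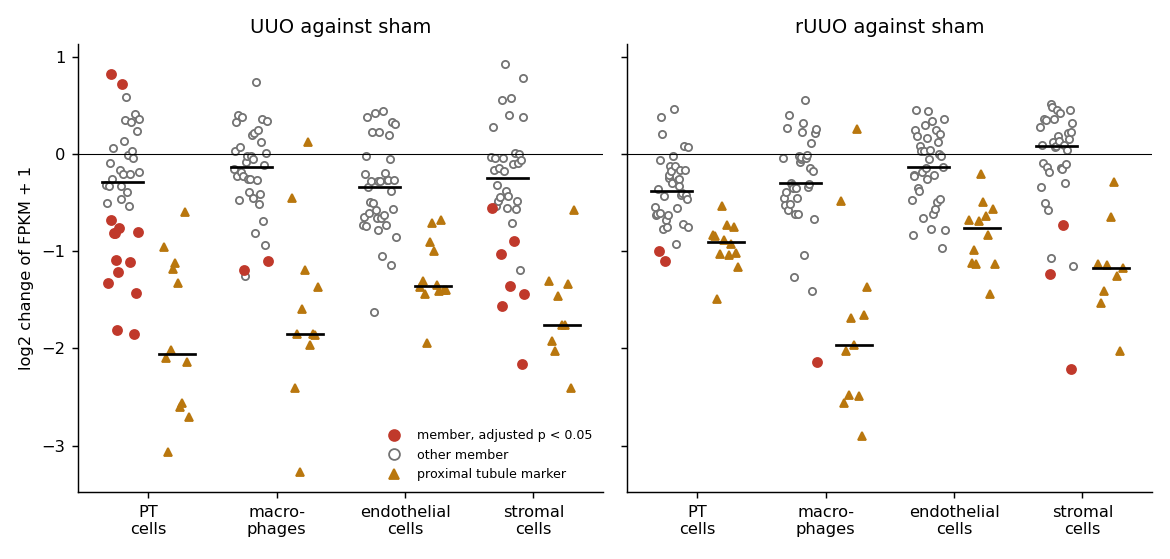
Log2 change of the tested genes in each sorted population for UUO against sham and rUUO against sham, with circles for the 38 genes, filled red where called, triangles for proximal tubule markers and black lines for medians. After UUO 14 of 38 genes are called in PT cells, where 32.8% of all genes were, 7 of 36 in stromal cells (26.4%), 2 of 36 in macrophages (4.99%) and 0 of 37 in endothelial cells (1.98%).

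Whether the change in PT cells differed from the change in another population was tested directly, by the difference of the changes in a fit over all 44 samples, in which all 38 genes could be tested. For UUO against sham the median difference from macrophages, endothelial and stromal cells was 0.45, 0.40 and 0.51 on the log2 scale for all genes and -0.19, 0.11 and -0.05 for the 38. For rUUO against UUO it was -0.23, -0.38 and -0.41 for all genes and 0.11, -0.32 and -0.20 for the 38. After UUO 3 genes had a lower change in PT cells than in macrophages, where 1.77% of all genes had. Acaa2 had a difference of -1.35 ± 0.30 on the log2 scale (SE, limma, Benjamini-Hochberg adjusted p = 0.0013). Macrophages held Acaa2 at 18.1, 18.4, 19.9 and 24.7 FPKM in sham and 13.5, 21.7, 23.8 and 25.2 FPKM in UUO, whereas it fell in PT cells. Acat1 differed by -1.20 ± 0.36 (adjusted p = 0.0215), with macrophages at 17.71, 14.98, 17.22 and 14.81 FPKM in sham and 20.81, 22.49, 19.54 and 22.76 FPKM in UUO. Etfa differed by -0.75 ± 0.26 (adjusted p = 0.0435), with macrophages at 22.37, 37.40, 36.43 and 35.49 FPKM in sham and 76.53, 49.87, 49.08 and 46.96 FPKM in UUO. Its own difference in PT cells was -0.01, and that in macrophages 0.74, neither of which passed the test by itself. Without PT sham replicate 1 the count was 1, and Acat1 was no longer called (adjusted p = 0.0514). Etfa was not called without any 1 of the PT sham samples, PT UUO replicate 2, 3 or 4, macrophage sham replicate 1 or macrophage UUO replicate 1, nor without the filter (up to 0.128). Acaa2 was called in every alternative. For rUUO against UUO, 7 of the 38 and 1824 of all 14332 genes had an unadjusted p under 0.05 by limma. Of the 38, 0 were called, where 0.781% of all genes were called. Without PT UUO replicate 1, PT rUUO replicate 4, macrophage UUO replicate 2 or stromal UUO replicate 3 the count was 1, and under the rescalings 1 and 2.

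After UUO 2 genes had a lower change in PT cells than in endothelial cells, where 1.06% of all genes had. Amacr differed by -1.63 ± 0.54 on the log2 scale and Acaa2 by -1.12 ± 0.31 (limma, Benjamini-Hochberg adjusted p = 0.0437 and 0.0130). Endothelial cells held Amacr at 5.50, 0.86, 2.55 and 2.07 FPKM in sham and 3.70, 1.83 and 5.98 FPKM in UUO, and Acaa2 at 60.38, 43.86, 47.30 and 47.58 FPKM and at 36.87, 56.11 and 37.70 FPKM. Amacr was not called with a pseudocount of 0.1 or without the filter. The count was 1 without PT sham replicate 1, 2 or 4, PT UUO replicate 1 or 2, endothelial sham replicate 2, 3 or 4, or endothelial UUO replicate 1, 2 or 4, since Amacr lost its call without each of these but endothelial UUO replicate 2 (adjusted p up to 0.172) and Acaa2 without that one (0.0601). For rUUO against UUO Acad11 was the 1 gene called, lower by -1.89 ± 0.48 (adjusted p = 0.02996), where 1.99% of all genes were. Endothelial cells had Acad11 at 3.15, 2.15 and 1.08 FPKM in UUO and at 4.56, 3.30, 6.56 and 6.05 FPKM in rUUO, above all 3, whereas it fell in PT cells. The count was 0 without PT rUUO replicate 2 or 4, endothelial UUO replicate 4 or endothelial rUUO replicate 4 or 6, and 2 without endothelial UUO replicate 2. Acad11 was also not called without PT UUO replicate 2, without the mitochondrial genes or after quantile normalization, and its adjusted p reached 0.177.

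Against stromal cells 5 genes (13.2%) had a higher change in PT cells after UUO and 2 a lower, where 23% of all genes had a higher and 6.16% a lower change. Ppargc1a differed by 2.40 ± 0.85 on the log2 scale (SE, limma, Benjamini-Hochberg adjusted p = 0.0309). Amacr differed by -1.77 ± 0.52 (adjusted p = 0.0092), with stromal samples at 0.87, 1.46, 0.99 and 1.72 FPKM in sham and 2.29, 3.45, 1.66 and 1.99 FPKM in UUO. Eci1 differed by 1.71 ± 0.54 (adjusted p = 0.0141), with stromal samples at 10.07, 8.73, 5.83 and 11.03 FPKM in sham and 0.80, 3.96, 2.07 and 6.41 FPKM in UUO. Eci1 was not called after quantile normalization (adjusted p = 0.112), nor Amacr with a pseudocount of 0.1 (adjusted p = 0.0612). Crot (1.27), Acadl (0.86) and Hadha (0.81) were the other higher genes and Scp2 (-1.18) the other lower one. The split was 3 higher and 4 lower without the mitochondrial genes and 2 higher and 5 lower after quantile normalization, where 22.7% and 13.4% of all genes had a higher and 6.95% and 11.8% a lower change. The count was 4 without PT sham replicate 1 or stromal UUO replicate 1 and 3 without stromal sham replicate 2. Ppargc1a was not called without PT sham replicate 1 or 4, PT UUO replicate 3 or 4, stromal sham replicate 2 or stromal UUO replicate 1 or 2, with a pseudocount of 0.1 or without the filter (adjusted p up to 0.0783), and Scp2 not without PT sham replicate 1 or stromal sham replicate 2 (up to 0.053). Acadl and Hadha were called in 39 of 49 alternatives each, under neither rescaling, and Crot in all. For rUUO against UUO 2 genes had a lower change in PT cells, where 6.8% of all genes did. Crot differed by -1.53 ± 0.34 (adjusted p = 0.0046), at 9.05, 13.98, 11.21 and 12.75 FPKM in stromal UUO and 21.05, 14.39, 17.48 and 22.10 FPKM in stromal rUUO. Acadl differed by -1.28 ± 0.32 (limma, Benjamini-Hochberg adjusted p = 0.0106), at 14.25, 17.27, 16.95 and 14.74 FPKM and at 29.31, 17.31, 21.78 and 18.26 FPKM, and was not called without the mitochondrial genes or after quantile normalization (adjusted p up to 0.121). The count was 4 without stromal UUO replicate 3.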

How the data were processed

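RNA from each sorted sample was amplified (Ovation RNA-Seq V2 kit) before Illumina HiSeq sequencing. The authors deposited FPKM per gene, rounded to 2 decimals. The submitters' processing notes name FastQC, Bowtie2, RSEM, DESeq2 and mm10, without versions. Of 46 value columns, 44 were used, because 2 carried the same name and could not be assigned. No column was named for the third PT sham sample, and a PT sample titled both SHAM and UUO was grouped by its treatment label. Depth is unknown, so no counting interval is given.

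Groups were compared with limma 3.58.1 in R 4.3.3 (lmFit and eBayes with a trend on log2(FPKM + 1)) within each population, over all samples for differences of changes, and over sham samples for levels. Genes averaging under 1 FPKM in the samples of a fit were left out. The Benjamini-Hochberg adjusted p was called below 0.05. Alternatives were a pseudocount of 0.1, no filter, rescaling without the 37 mitochondrial genes, quantile normalization, the replicate number as a block, and each sample left out. In the fit over all samples the block was surgery and number together, as a random effect. The fit was tested on simulated data. Named with values were Ppara, Ppargc1a and Cpt1a, the 8 called genes with the largest change in each PT comparison and the 3 largest in each other comparison, in every sample or, outside PT cells, in part as a range or mean. Of the other pathway genes the 3 largest called rises and falls in PT UUO are named. The 38 genes, the lists and these rules were chosen with earlier results of these data known. A result for a gene of the pathway list in rUUO against UUO is not reported here. Promoter windows came from the RefSeq tables (GRCm38.p6), searched in Python 3.11.15 with numpy 2.4.6, pandas 2.3.3 and matplotlib 3.10.9. Deviations of same-numbered samples had a median Pearson's r across genes of 0.009 between populations (57 pairs) and 0.013 between surgeries (35 pairs). Of these pairs 2 and 1 were above 0.1, up to 0.167 and 0.101. Among pairs with different numbers 0 of 184 and 0 of 126 were.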

Additional observations from a re-analysis of the deposited data

Results flagged for a closer look

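Etfb in stromal sham replicate 3 stood apart from its group by Dixon's criterion, at 111.45 FPKM against 131, 133.39 and 133.5 FPKM, with a gap ratio of 0.895 that passed the 95% critical value for 4 samples. It was 1 of 28 groups of 4 samples tested, of which chance marks about 1 in 20.

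The other results listed are differences between populations in the same contrast, each tested by limma with Benjamini-Hochberg adjustment on the difference itself. After UUO against sham, 3 genes (7.89%) had a lower change in PT cells than in macrophages, where 1.77% of all genes had. They were Acaa2 by -1.35, Acat1 by -1.20 and Etfa by -0.75 on the log2 scale. Against endothelial cells there were 2 (5.26%), Amacr by -1.63 and Acaa2 by -1.12, where 1.06% of all genes had a lower change. Against stromal cells there were 7 in either direction (18.4%), below the 29.2% of all genes. The largest were Ppargc1a at 2.40, Amacr at -1.77 and Eci1 at 1.71. For rUUO against UUO, 1 gene (2.63%) had a lower change than in endothelial cells, Acad11 by -1.89, where 1.99% of all genes had. Lower than in stromal cells were 2 (5.26%), Crot by -1.53 and Acadl by -1.28, where 6.8% of all genes were.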

How the results depend on the processing

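Counts of called genes among the 38 stayed within 1.5 times the reported one in 81 of 105 combinations of comparison and alternative, samples left out aside. In PT rUUO against UUO the 4 became 2 without the filter, in PT rUUO against sham the 2 became 1 without the filter, 11 without the mitochondrial genes and 7 after quantile normalization. In macrophage UUO against sham the 2 became 1 without the filter, in stromal UUO against sham the 7 became 3, and in stromal rUUO against UUO the 1 became 0 without the filter, without the mitochondrial genes and after quantile normalization. For differences of changes after UUO, the 3 against macrophages became 6 without the mitochondrial genes and 5 after quantile normalization, the 2 against endothelial cells 1 with a pseudocount of 0.1 or no filter and 4 after quantile normalization, and the 7 against stromal cells 4 without the filter. For rUUO against UUO the 0 against macrophages became 1 and 2 without the mitochondrial genes and after quantile normalization, the 1 against endothelial cells 0 under both, and the 2 against stromal cells 1 without the mitochondrial genes. Without the filter more genes are tested, and the cause of the other shifts was not tested.

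With the replicate number as a block, the 4 in PT rUUO against UUO became 1, the 2 in PT rUUO against sham 1, the 2 in macrophage UUO against sham 1 and the 1 in stromal rUUO against UUO 0. The labels give no mouse, and the deviations of same-numbered samples had small median correlations. The consensus correlation of samples of the same surgery and number was 0.0342, from the fit over all samples and not from the fits within a population.

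With 1 sample left out, calls ranged from 10 to 14, 1 to 4 and 0 to 3 in the 3 PT comparisons (UUO against sham, rUUO against UUO, rUUO against sham), from 1 to 2, 0 to 0 and 1 to 1 in macrophages, 0 in endothelial cells, and from 3 to 8, 0 to 1 and 2 to 3 in stromal cells. For differences of changes they ranged from 1 to 4 and 0 to 1 against macrophages, 1 to 3 and 0 to 2 against endothelial cells, and 3 to 9 and 2 to 4 against stromal cells. In sham they ranged from 26 to 30, 27 to 30 and 23 to 29. Signs turned for Ppargc1a in PT UUO against sham (-0.06 without the mitochondrial genes), Cpt1a in PT rUUO against UUO (0.11 without them, 0.16 after quantile normalization) and Ppara in PT rUUO against sham (0.15 without PT rUUO replicate 3, down to -0.51 without replicate 2), none of which was called. Depth is unknown, so low levels such as those of Ppara outside PT cells have no counting error.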
